A study of Mus musculus with 8 samples.

Results

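The interleukin-1 (IL-1) receptor family and its first signalling proteins were followed in splenic regulatory T (Treg) cells with high and with low Bach2 reporter. The 9 genes were chosen by symbol: the receptor chains Il1rl1 (which encodes ST2), Il1r1, Il1r2, Il1rap, Il18r1 and Il18rap, the adaptor Myd88 and the kinases Irak4 and Irak1. All 9 were found by Ensembl identifier among the 36811 gene models of the deposited table, and 8 of them were among the 11260 genes that passed the low-value filter, which asked for 4 or more libraries at an FPKM of 1 or above (FPKM divides the fragments of a gene by its transcript length and by the size of its library). Spleens came from C57BL/6 mice aged 12 to 13 weeks. Every animal carried Foxp3EGFP-DTR, a green reporter of the Treg transcription factor Foxp3 that also holds a diphtheria toxin receptor, and Bach2tdRFP/+, in which 1 of the Bach2 alleles carries a red reporter, so no library is of cells without these alleles. CD4 T cells were enriched, Foxp3-GFP positive cells were sorted into Bach2-RFP HI and Bach2-RFP LO cells, and no treatment is named. There were 4 HI and 4 LO libraries, each group with 2 labelled female (F1, F2) and 2 labelled male (M1, M2).

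IL-1 family cytokines act through pairs of chains. IL-33 binds ST2 and IL-18 binds IL-18R1, and each then recruits an accessory chain, IL1RAP for ST2 and IL18RAP for IL-18R1. IL-1 signals through IL1R1 with IL1RAP, whereas IL1R2 binds IL-1 without a signalling domain and acts as a decoy. Signalling pairs bring in MyD88, which assembles IRAK4 and IRAK1 and leads to NF-kB and MAP kinases. ST2 is known from activated and tissue Treg cells, in which IL-33 supports expansion and the release of amphiregulin.

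The libraries fitted their labels. Bach2 stood at 8.62 to 20.7 FPKM in HI and 0.447 to 0.894 in LO libraries, while Foxp3 stood at 13.3 to 15.2 and 10.5 to 19.8. Read totals are not in the table; relative depth, read from the steps between low values with HI F1 set to 1, ran from 0.636 in HI M1 to 1.27 in HI F2 in the HI group and from 0.818 to 1 in 3 LO libraries, with LO M2 apart at 5.27. Separate animals are not stated for the libraries, so p-values here reflect only library-to-library spread, which may be technical.

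The ligand-binding chains of IL-33, IL-18 and the IL-1 decoy were higher in LO cells, together with the IL-18 accessory chain, while differences in the shared accessory chain, the adaptor and the kinases did not pass the test. Of the 8 tested genes, 4 were higher in LO cells (Il1rl1, Il1r2, Il18r1 and Il18rap) and 0 lower, at a limma adjusted p below 0.05. Among all tested genes the share called was 8.29%, with 4.65% higher and 3.64% lower in LO. In these 4 genes the 4 LO values lay above the 4 HI values, as in 7.9% of all tested genes; 0 of the 8 had the LO values below, as in 7.18%, and 15.1% of all tested genes had no overlap in either direction. Il1rl1 and Il18rap, with 0 and 3 HI libraries at 1 FPKM or above, passed the filter only through the LO libraries, where they are high, so the count is a description and lends no support of its own. Both calls held with no filter (limma adjusted p = 0.0021 for Il1rl1 and 0.0349 for Il18rap).

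**Figure D1:**
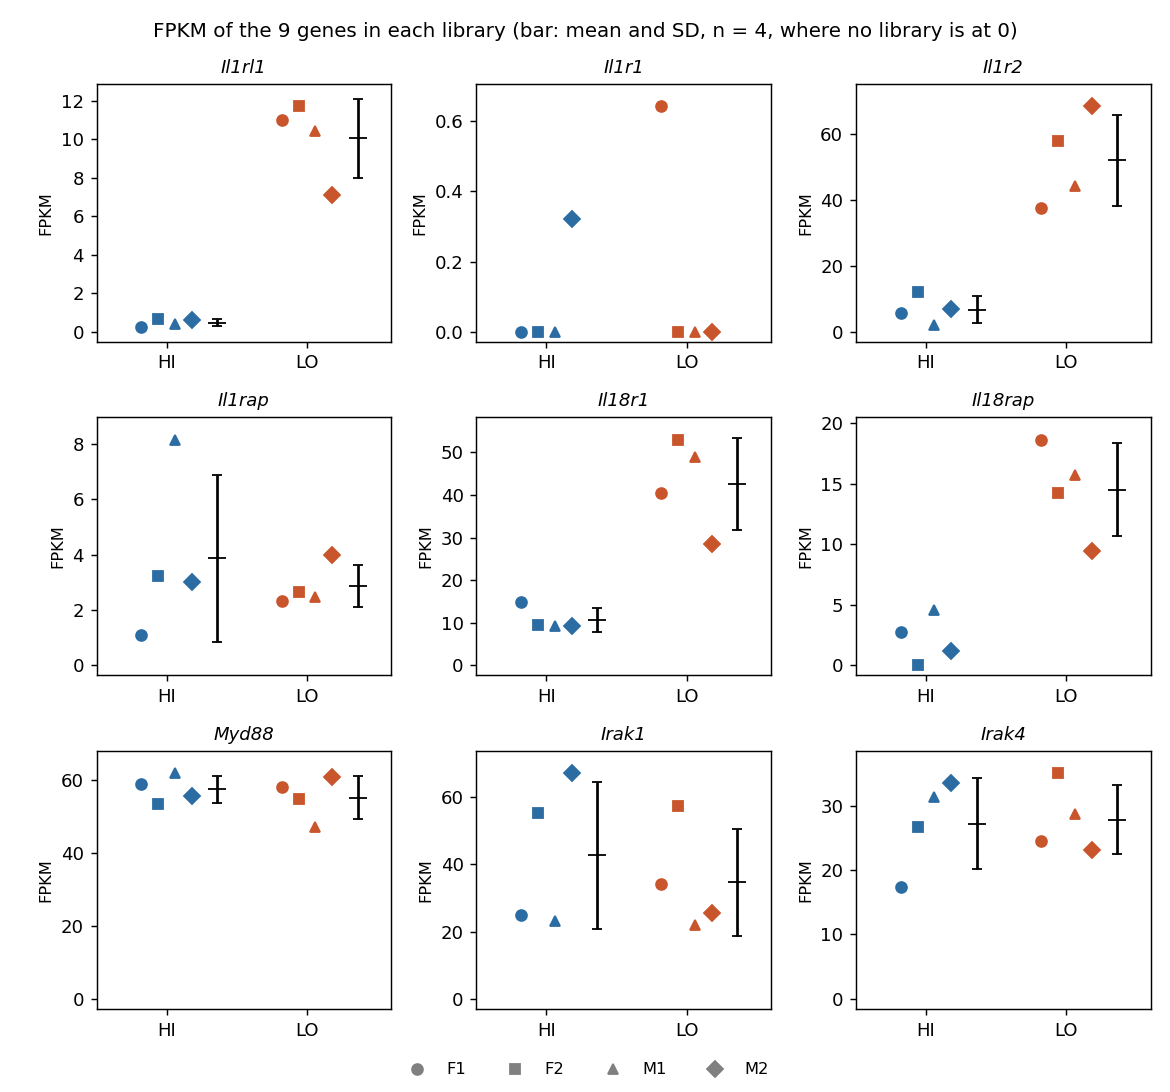
FPKM (vertical axes, linear, a scale of their own for each gene) of the 9 genes in the 4 HI (blue) and 4 LO (orange) libraries, with symbols for the labels F1, F2, M1 and M2. Bars give the mean and SD (n = 4) where no library is at 0. Il1rl1, Il1r2, Il18r1 and Il18rap show LO points above all HI points, and the other 5 genes overlap.

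Il1rl1 (ENSMUSG00000026069) was close to 0 in HI cells. Its FPKM was 0.246, 0.658, 0.386 and 0.601 in HI F1, F2, M1 and M2, and 11, 11.7, 10.4 and 7.09 in the LO libraries in the same order. All LO libraries were above all HI libraries, LO M2 was the lowest of its group, and the mean rose 21.3-fold, from 0.473 ± 0.191 to 10.1 ± 2.05 (SD, n = 4 each). On the log2(FPKM + 1) scale, which understates the change of low genes, LO exceeded HI by 2.90 (SE 0.30, 95% interval 2.22 to 3.58, limma adjusted p = 0.00057). In a bulk library, a larger share of cells with the transcript and more transcript per cell cannot be told apart. Divided by each library's relative value of 1 read, the HI values stood at 1, 3.41, 1 and 2 times the smallest of them and the LO values at 36.7, 39.0, 42.4 and 152. The HI level thus rests on few steps above 0, and its fold change on a small denominator. The table gives 1 value per gene, and the membrane and soluble forms of ST2, which the gene makes from different transcripts, were not separated.

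Il1rap (ENSMUSG00000022514), the accessory chain that ST2 needs to signal, did not follow Il1rl1. It was listed at 1.09, 3.21, 8.14 and 3.0 FPKM in HI and 2.33, 2.67, 2.45 and 4.0 in LO. The groups overlapped, with the lowest and the highest value both in HI. The difference was -0.15 on the log2 scale with a 95% interval from -1.15 to 0.85 (limma adjusted p = 0.895), so a change of about 2-fold either way was within reach of the spread. FPKM is per transcript length, so levels of the chains can be set side by side. Il1rl1 stood below Il1rap in 4 of 4 HI libraries and above it in 4 of 4 LO libraries. The log2 ratio of Il1rl1 to Il1rap, each as FPKM + 1, was -1.53 ± 0.84 in HI and 1.52 ± 0.55 in LO (SD, n = 4 each). The ratio differed by 3.05 (two-sided exact permutation test, p = 0.0286, the lower limit of the test with 4 libraries a group, or 0.0429 adjusted over the 3 chain ratios compared). With a pseudocount of 0.1 it differed by 4.32 and the groups still did not overlap, but it no longer passed (exact permutation test, adjusted p = 0.0857). Its unadjusted p stayed at the lower limit of the test. A lone ratio at that limit cannot pass adjustment over 3 ratios, so this setting cannot decide the matter.

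Il1r2 (ENSMUSG00000026073), the decoy, had the highest mean level in LO cells among the 6 receptor chains of the set. Its FPKM was 5.60, 12.1, 2.20 and 6.84 in HI and 37.6, 57.9, 44.1 and 68.3 in LO. Every LO library was at least 3-fold above the highest HI library, and HI M1 was the lowest of all. The mean rose 7.78-fold, from 6.68 ± 4.10 to 52.0 ± 13.8, with a log2 difference of 2.92 (SE 0.41, 95% interval 2.01 to 3.83, limma adjusted p = 0.0020). Ranked among the tested genes, Il1r2 moved from the 30.1 percentile of mean FPKM in HI to the 76.3 percentile in LO.

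Il1r1 (ENSMUSG00000026072), the chain through which IL-1 signals, was near 0 in both groups. It was listed at 0 in 3 HI and 3 LO libraries, at 0.321 in HI M2 and at 0.643 in LO F1, and it did not pass the filter. No difference was detected (two-sided exact permutation test, p = 1). In both groups the decoy thus exceeded the signalling chain in all 8 libraries, and the log2 ratio of Il1r1 to Il1r2 fell by 2.84 from HI to LO (two-sided exact permutation test, p = 0.0286, or 0.0429 adjusted over the 3 ratios), which carries the change of Il1r2. With a pseudocount of 0.1 the ratio did not pass (exact permutation test, adjusted p = 0.129).

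Both chains of the IL-18 receptor rose. Il18r1 (ENSMUSG00000026070), which binds IL-18, was listed at 14.8, 9.46, 9.28 and 9.20 FPKM in HI and 40.4, 52.9, 48.8 and 28.4 in LO. It was the only 1 of the 4 rising genes that stood above 9 FPKM in every HI library, and LO M2 was again the lowest of the LO group. The mean rose 3.99-fold, from 10.7 ± 2.75 to 42.6 ± 10.8 (log2 difference 1.89, SE 0.26, 95% interval 1.30 to 2.48, limma adjusted p = 0.0020). Il18rap (ENSMUSG00000026068), the accessory chain, was listed at 2.80, 0, 4.54 and 1.18 in HI and 18.7, 14.2, 15.7 and 9.43 in LO. The groups did not overlap, and since HI F2 is at 0 no fold is given. Divided by each library's relative value of 1 read, the HI values stood at 2.91, 0, 3.0 and 1 times the smallest above 0. The HI level of Il18rap thus rests on few steps. The log2 difference was 2.54 (SE 0.51, 95% interval 1.40 to 3.68, limma adjusted p = 0.0134). With a pseudocount of 0.1 in place of 1, it was 3.63 and the call was lost (limma adjusted p = 0.074).

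The balance of the IL-18 receptor chains did not differ beyond the spread. The log2 ratio of Il18r1 to Il18rap, each as FPKM + 1, was 2.14 ± 1.02 in HI and 1.49 ± 0.31 in LO (SD, n = 4 each). The difference of -0.65 had p = 0.286 in a two-sided exact permutation test (0.286 adjusted over the 3 ratios). Without HI M1, where Il18rap is highest in its group, it was -1.06 (exact permutation test, adjusted p = 0.0286). Il18r1 exceeded Il18rap in all 8 libraries. The HI values of this ratio rest on few steps of Il18rap above 0.

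The adaptor and both kinases stood at 17.4 FPKM or above in every library of either group. Myd88 (ENSMUSG00000032508), the adaptor that all these signalling receptors share, was listed at 59.0, 53.3, 61.8 and 55.5 FPKM in HI and 58.1, 54.7, 47.1 and 60.9 in LO. The groups overlapped, with 57.4 ± 3.76 and 55.2 ± 5.95 (SD, n = 4 each), and the log2 difference of -0.06 had a 95% interval from -0.41 to 0.29 (limma adjusted p = 0.875). Myd88 stood at the 77.8 percentile of mean FPKM among tested genes in HI and at the 77.4 percentile in LO.

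Irak4 (ENSMUSG00000059883), the first kinase on MyD88, was listed at 17.4, 26.6, 31.3 and 33.5 in HI and 24.6, 35, 28.6 and 23.1 in LO. Its log2 difference was 0.05 (95% interval -0.51 to 0.61, limma adjusted p = 0.935). Irak1 (ENSMUSG00000031392), which IRAK4 activates, was listed at 25.1, 55.2, 23.3 and 67.0 in HI and 34.0, 57.3, 21.9 and 25.6 in LO. It varied more within the groups than between them, with values above 55 FPKM in HI F2, HI M2 and LO F2. Its log2 difference was -0.24 (95% interval -1.15 to 0.67, limma adjusted p = 0.798). In the GENCODE annotation of build GRCm38, Myd88 overlaps Acaa1a and Irak4 overlaps Twf1 on the opposite strand, and the sources do not say if strand was used in counting, so the levels of Myd88 and Irak4 are uncertain to that extent. Acaa1a was listed at 41.0 to 57.1 over the 8 libraries, and Twf1 had HI values of 10.4 to 23.5 and LO values of 2.37 to 12.7. Il1r2 and Il1rap carry the same uncertainty. They overlap the antisense models Gm16894 and Gm20319, for which the deposited values hold no entry.

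**Figure D2:**
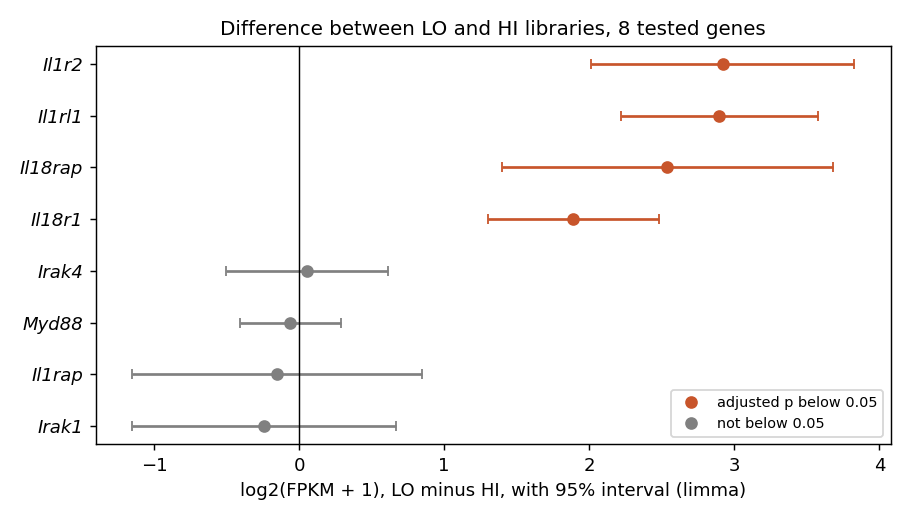
Difference in log2(FPKM + 1) between LO and HI libraries (horizontal axis, LO minus HI) with its 95% interval from limma for the 8 tested genes, n = 4 libraries a group. Orange marks the 4 genes with adjusted p below 0.05, from 1.89 for Il18r1 to 2.92 for Il1r2, and the intervals of Il1rap, Myd88, Irak4 and Irak1 (grey) include 0.

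The order of levels changed between the groups. In HI cells the mean FPKM fell from Myd88 through Irak1, Irak4, Il18r1, Il1r2, Il1rap, Il18rap and Il1rl1 to Il1r1, and the ranges of neighbours overlapped at every step other than that from Irak4 to Il18r1. In LO cells the order was Myd88, Il1r2, Il18r1, Irak1, Irak4, Il18rap, Il1rl1, Il1rap and Il1r1. There the ranges of the first 5 genes overlapped in turn, as did those of Il18rap and Il1rl1, whereas Irak4 lay above Il18rap, Il1rl1 above Il1rap and Il1rap above Il1r1 in all libraries. Il1r2 and Il18r1 in LO cells were thus at levels not separated from that of their neighbours in the order, Myd88 and Irak1.

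The 4 genes that rose lie on chromosome 1 in a single stretch of the genome. In the GENCODE annotation of build GRCm38 the protein-coding genes follow each other on the plus strand as Map4k4, Il1r2, Il1r1, Il1rl2, Il1rl1, Il18r1, Il18rap, Slc9a4 and Slc9a2. The order of rising genes along it was interrupted. Il1r1 and Il1rl2, which encodes the IL-36 receptor and reached at most 1.16 FPKM, lie between Il1r2 and Il1rl1 and stayed near 0. Outside the receptor genes, Map4k4, a kinase gene, had HI values of 2.54 to 4.0 and LO values of 2.08 to 3.40 (log2 difference -0.15, limma adjusted p = 0.828), and Slc9a4 and Slc9a2 were at 0 in all 8 libraries. Il1rl1 ends 136 bases before Il18r1 starts in that annotation.

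**Figure D3:**
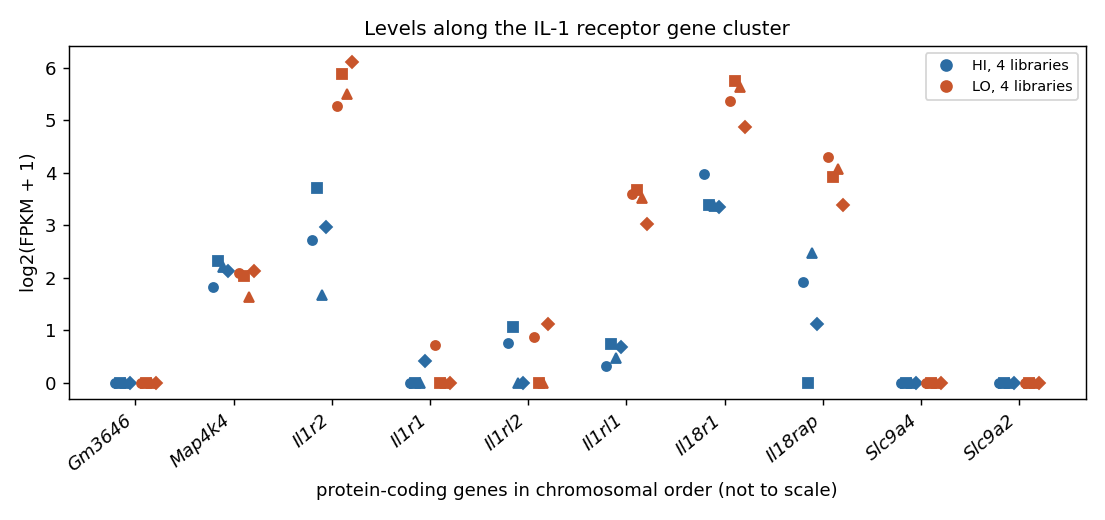
Level as log2(FPKM + 1) (vertical axis) of 10 protein-coding genes around the receptor genes in chromosomal order (horizontal axis, not to scale), 4 HI (blue) and 4 LO (orange) libraries each. Il1r2, Il1rl1, Il18r1 and Il18rap have all LO points above all HI points, with Il1r1 and Il1rl2 near 0 between them and the flanking genes overlapping or at 0.

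The bases before the starts of the 4 rising genes are shown because these neighbours moved together in the sort. They are from RefSeq (build GRCm38.p6, plus strand), 5′ to 3′, and are the parts of the 250 bases before the first listed start that lie outside annotated exons. The windows are chr1:40429320-40429569 for Il1rl1, chr1:40085852-40085984 for Il1r2, chr1:40465416-40465551 for Il18r1 and chr1:40515112-40515361 for Il18rap. Capitals mark matches to AGATAA, a motif of GATA factors, or to CACGTG, an E-box, on either strand.
Il1rl1: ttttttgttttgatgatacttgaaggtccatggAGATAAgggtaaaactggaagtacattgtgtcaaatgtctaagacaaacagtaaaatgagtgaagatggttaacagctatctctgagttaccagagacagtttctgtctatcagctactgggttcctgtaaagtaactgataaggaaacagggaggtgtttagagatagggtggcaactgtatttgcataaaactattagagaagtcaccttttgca
Il1r2: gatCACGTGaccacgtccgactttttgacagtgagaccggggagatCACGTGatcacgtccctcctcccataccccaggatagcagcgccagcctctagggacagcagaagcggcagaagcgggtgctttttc
Il18r1: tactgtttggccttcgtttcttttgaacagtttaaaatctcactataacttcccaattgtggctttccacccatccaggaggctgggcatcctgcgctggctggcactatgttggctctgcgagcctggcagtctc
Il18rap: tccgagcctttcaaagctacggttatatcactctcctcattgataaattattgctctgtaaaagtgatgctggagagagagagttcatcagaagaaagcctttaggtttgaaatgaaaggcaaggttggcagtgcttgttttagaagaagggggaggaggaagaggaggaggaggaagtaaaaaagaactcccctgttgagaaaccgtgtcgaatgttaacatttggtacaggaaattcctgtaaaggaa

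The core TGANTCA, to which AP-1 and Bach2 dimers bind, and the Maf recognition element, which holds that core, had 0 matches on either strand in the 250 bases before any of the 14 listed starts of the 9 genes. Among all 32851 windows of that length in the RefSeq table, 6.75% and 0.353% held a match. The NF-kB pattern, GGG and CC with 5 bases of any kind between them, present in 45.8% of windows, had 0 matches before the first listed starts of the 4 rising genes and 1 before the third start of Il18r1. AGATAA, in 9.99% of windows, had 1 match before each of the 2 listed starts of Il1rl1. CACGTG, in 6.02% of windows, had 2 matches before the start of Il1r2. The last 2 patterns were chosen after the sequences were read, and a match or its absence in these windows is a description of letters.

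Genes whose level moved most like a receptor chain were found by the smallest root mean square difference of log2(FPKM + 1) over the 8 libraries, after each gene's mean was subtracted. For Il1rl1 the nearest was Itgae, the CD103 integrin chain, at 0.204, followed by Hrh4, a histamine receptor, at 0.275 and Itgb1, an integrin beta chain, at 0.280. For Il1r2 they were Rnase4 (0.281), Gpr55 (0.464) and Plxdc1 (0.493), and for Il18r1 Knstrn (0.260), Atxn1 (0.263) and Cd320 (0.266). For Il18rap they were Racgap1 (0.307), S100a11 (0.393) and Osbpl3 (0.438). The profile of Il1rap, with its high value in HI M1, was nearest to Nup85 (0.215), Lcmt2 (0.242) and Zfp740 (0.243). Itgae stood at 12.0 to 18.8 FPKM in HI and at 138, 165, 110 and 78.9 in LO F1, F2, M1 and M2, with the same order of LO libraries F2, F1, M1 and M2 as Il1rl1. These measures share the contrast of the sort and carry no test.

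Of the cytokines that these receptors bind, Il1b rose and Il33 was not seen. Il33 was listed at 0 in all 8 libraries, as were Il36a, Il36b, Il36g and Il1f10. Il1b, which encodes IL-1 beta, was at 0 in 3 HI libraries and 1.26 in HI M2, and at 6.31, 8.19, 4.51 and 3.81 in LO F1, F2, M1 and M2 (log2 difference 2.41, SE 0.40, limma adjusted p = 0.0052). It passed the filter only through the LO libraries, where it is high, and its call held with no filter (adjusted p = 0.0112). It was the 1 called of 4 tested genes, among 10 matched ligand and antagonist genes, beside 8.29% called over all tested genes. Il18, the IL-18 gene, was listed at 9.53, 1.87, 3.74 and 2.91 in HI and 20.4, 0, 7.15 and 10.4 in LO, with overlap between the groups (log2 difference 0.46, SE 0.85, limma adjusted p = 0.817). Il18bp, the soluble inhibitor of IL-18, had HI values of 1.22 to 10.2 and LO values of 0 to 3.59 (limma adjusted p = 0.262). Il1rn, the IL-1 receptor antagonist, was at 0 to 5.18 and 0 to 2.28 (limma adjusted p = 0.953), and Il1a reached at most 1.06.

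Further along the pathway the share of called genes was near that of all tested genes. Sigirr, an inhibitory receptor of the family, ranged over 71.7 to 98.5 FPKM in HI libraries and 73.4 to 103 in LO libraries, the only 1 tested of the other family receptors (log2 difference 0.05, 95% interval -0.34 to 0.44, limma adjusted p = 0.913). Of 27 tested genes between the receptors and NF-kB or MAP kinases, 1 rose, 1 fell and 25 did not pass, beside 8.29% called over all tested genes, and the median log2 difference was -0.07 against -0.03 over all tested genes. Map2k3, a kinase upstream of p38, rose from a mean FPKM of 38.1 ± 13.2 to one of 94.0 ± 14.4 (SE of the log2 difference of 1.34 was 0.27, limma adjusted p = 0.0141). Irak3, the inhibitory IRAK-M, fell from 16.4, 8.67, 11.6 and 12.0 in HI to 3.86, 7.71, 3.58 and 4.28 in LO, with a log2 difference of -1.19 (limma adjusted p = 0.0473). Its call was lost when any 1 library other than LO F2 was left out (adjusted p = 0.0605 to 0.12). It was also lost with a pseudocount of 0.1 (adjusted p = 0.0518), with no filter (adjusted p = 0.0891), with the sex label as a covariate (adjusted p = 0.065) and without both HI M1 and LO M2 (adjusted p = 0.161).

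Of 8 inhibitors of the pathway such as Nfkbia and Tnfaip3, 0 passed in limma, 2 had an unadjusted p below 0.05 and the median was 0.44. With 8.29% of all tested genes called, counts in lists this short say little about them. Of 9 tested Toll-like receptor and adaptor genes, which share Myd88, 1 rose and 1 fell (median 0.17), beside 4.65% higher and 3.64% lower among all tested genes. Tirap, an adaptor between Toll-like receptors and MyD88, was at 0 in 3 HI libraries with 1.37 in HI F2, against 2.84 to 6.72 over the LO group (log2 difference 2.08, limma adjusted p = 0.0127). It passed the filter only through the LO libraries, where it is high. Its call held with no filter (adjusted p = 0.0221) and was lost when HI M1 and LO M2 were both left out (adjusted p = 0.0862). Tlr7 fell from 8.82, 10.7, 57.4 and 27.5 in HI to 3.67, 2.04, 1.33 and 4.09 in LO (log2 difference -2.54, limma adjusted p = 0.0212). It no longer passed without HI M2 (adjusted p = 0.0591), without LO F2 (adjusted p = 0.0597) or without LO M1 (adjusted p = 0.0595). The call of Tlr7 was also lost when HI M1 and LO M2 were both left out. Tlr7 is also a gene of plasmacytoid dendritic and B cells, whose markers were called lower in LO for 4 of 6 and 4 of 7 tested. For the former the summed FPKM was 258 to 367 over the HI group and 136 to 243 over the LO group. For the latter it was 151 to 249 and 70.2 to 103. Most of the former sum was Bst2 (187 to 237 in HI, 125 to 233 in LO), which was not called. Most of the latter in LO was Cd79b (59.9 to 92.4), also not called. Of the called markers, Siglech had HI values of 7.14 to 44.6 and LO values of 0 to 1.40. Ms4a1 had 5.50 to 24.3 and 0 to 1.95. The part of these cells in the fall of Tlr7 was not tested.

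Of 5 tested genes that process IL-1 family cytokines, 2 rose and 0 fell (median 0.94), beside 4.65% higher and 3.64% lower among all tested genes. Casp1, the protease that matures IL-1 beta and IL-18, rose from 17.5, 17.4, 42.0 and 28.1 to 67.5, 79.9, 87.5 and 81.7 FPKM, with a log2 difference of 1.64 (limma adjusted p = 0.0056). Casp4, which encodes caspase-11, rose from 20.0 ± 10.7 to 65.0 ± 11.7 (log2 difference 1.78, limma adjusted p = 0.0115). Pycard, the inflammasome adaptor, was at 120 to 185 and 169 to 389 (limma adjusted p = 0.0542), and Nlrp3, a sensor, was at 0 in 6 libraries.

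Genes tied to ST2-bearing Treg cells in textbook accounts were mostly higher in LO cells. Of 11 tested, 9 rose and 0 fell (median 2.43), beside 4.65% higher and 3.64% lower among all tested genes, in a list chosen with earlier results of these data known. Klrg1, Nfil3, Il10 and Areg (not called) passed the filter only through the LO libraries, where they are high. The count and the median are thus a description and lend no support of their own. Klrg1 and Nfil3 kept their calls with no filter. The members with the smallest p were Tigit, an inhibitory receptor, with a log2 difference of 3.51 (limma adjusted p = 5.04e-05), Rora, a nuclear receptor, with 2.69 (limma adjusted p = 0.000127), Itgae with 2.96 (limma adjusted p = 0.000262) and Batf, an AP-1 factor, with 1.51 (limma adjusted p = 0.000295). Gata3, a factor known to act on Il1rl1 and named here after its values were seen, was at 217, 281, 230 and 160 FPKM in HI and 770, 685, 436 and 272 in LO. Its groups overlapped, and its call (log2 difference 1.20, limma adjusted p = 0.0461) was lost when any 1 library other than LO M2 was left out (adjusted p = 0.0633 to 0.125), with a pseudocount of 0.1 (adjusted p = 0.0557), with no filter (adjusted p = 0.0897) and without a variance trend (adjusted p = 0.088). Il10, an anti-inflammatory cytokine also named after its values were seen, had 0 FPKM throughout the HI group but 15.8, 1.31, 2.15 and 5.92 over the LO group (limma adjusted p = 0.0298), and so passed the filter only through LO. Its call was lost with no filter (adjusted p = 0.0556) and without any 1 HI library or LO M2 (adjusted p = 0.0634 to 0.0797). It was also lost without both HI M1 and LO M2 (limma adjusted p = 0.137).

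**Figure D4:**
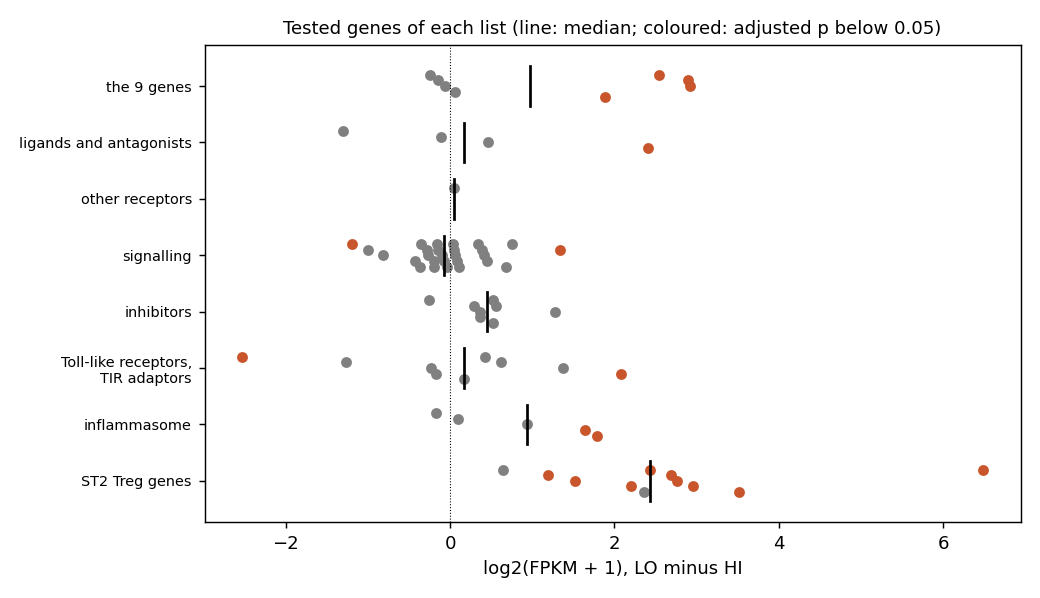
Difference in log2(FPKM + 1), LO minus HI (horizontal axis), of the tested genes of each list, 1 point a gene, spread vertically only for visibility. Black lines are list medians and orange marks adjusted p below 0.05. The signalling genes centre near 0 with 2 of 27 called, and 9 of 11 ST2 Treg genes are called to the right of 0, beside 8.29% called among all tested genes. Of the ST2 Treg genes, Klrg1, Nfil3, Il10 and Areg passed the filter only through the LO libraries.

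Markers of other cells that carry these receptors were read in the same libraries. The counts below stand beside 8.29% called over all tested genes, with 4.65% higher and 3.64% lower in LO. Mast cells and basophils carry ST2: 6 of 8 of their markers were above 0 in some library, their sum was 2.74 to 5.17 FPKM over the HI group and 0 to 10.2 over the LO group, and Mcpt4 and Prss34 were at 0 throughout. Kit, the only 1 tested, had HI values of 0 to 2.28 and LO values of 0 to 7.45 and was not called (limma adjusted p = 0.629). Group 2 innate lymphoid cells also carry ST2: Il5 and Il13 were at 0 in all libraries, while Il9r and Il17rb rose and brought the sum of their list from between 0 and 2.60 FPKM to between 20.1 and 33.7. Il9r and Il17rb, the only tested genes of that list, passed the filter only through the LO libraries, where they are high. Neutrophils carry IL1R2: their 9 markers summed to 31.2 to 124 FPKM over the HI group and 34.3 to 212 over the LO group, mostly S100a8 and S100a9, with 0 of 4 tested called (0 with an unadjusted p below 0.05 in limma). Natural killer cells carry the IL-18 receptor: their 7 markers summed to 33.5 to 40.4 over the HI group and 3.48 to 37.5 over the LO group, and 1 of 3 tested, Eomes, was lower in LO. Most of that sum was Gzma (24.7 to 29.1 in HI, 2.28 to 30.0 in LO), which was not called (limma adjusted p = 0.237). Eomes passed the filter only through the HI libraries, where it is high. Myeloid markers, beside Il1b and Casp1, summed to 95.4 to 216 over the HI group and 50.9 to 175 over the LO group, with 1 of 7 tested (Csf1r) lower. The larger part of the myeloid sum was Lyz2 (48.9 to 162 in HI, 35.4 to 134 in LO), which was not called (limma adjusted p = 0.661). The plasma cell gene Jchain rose from between 3.0 and 17.1 FPKM to between 47.6 and 160. It was the 1 called of 2 tested plasma cell markers. The other, Sdc1, overlapped between the groups (limma adjusted p = 0.422), with a highest value of 2.67 FPKM among HI libraries and 7.82 among LO libraries. Tnfrsf17, a plasma cell marker that was not tested, was above 0 only in LO M2 (1.11 FPKM). The part of these other cells in the receptor results was not tested.

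No difference by sex label was called in these genes. In the comparison of 2 female with 2 male labels, each the mean of a HI and a LO library, 0 of the 8 tested members passed in limma, 0 had an unadjusted p below 0.05, and 0.0178% of all tested genes were called. For the interaction of sex label and reporter level the member counts were again 0 and 0, and the share of all tested genes was 0.0178%. The interaction was imprecise: for Il1rl1 the difference between LO and HI was smaller in male than in female labels, by a term of -0.42 (SE 0.66, limma adjusted p = 0.999). For Il1r2 the term was 1.12 (SE 0.79, limma adjusted p = 0.999).

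Without HI M1 and LO M2, the shallowest and the deepest library, the 4 genes were called again, with log2 differences of 3.01 for Il1rl1, 2.41 for Il1r2, 2.01 for Il18r1 and 3.08 for Il18rap (limma adjusted p = 0.0041, 0.0077, 0.0068 and 0.0155).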

How the data were processed

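RNA of sorted cells was made into SmartSeq2 libraries, per the labels' protocols. The deposited values are FPKM, 1 column per library, which the authors took from Cuffnorm, as that table's name says; the sources used here name neither its scaling method nor its annotation. The submitters' processing notes name FastQC, cutadapt and HISAT2 and, as builds, mm9 and NCBIM37. The series design text describes another experiment and was not used. Symbols came from GENCODE M21 (31840 of 36811 identifiers matched), and 162 of 165 list entries were found.

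The limma fit (version 3.58.1, R 4.3.3) took log2(FPKM + 1) of genes that reached 1 FPKM in 4 libraries or more, with eBayes, a variance trend and Benjamini-Hochberg adjustment over 11260 genes, at 0.05. The fit was tested on simulated data. Members and lists were chosen with earlier results of these data known. Named beside the 9 members were Bach2, Foxp3, up to 4 called genes of each list, family ligands above 0, cluster neighbours and the 3 genes nearest to each receptor chain. Members of other lists were named after their values were seen. Other settings were a pseudocount of 0.1, no filter or a filter of 5, quantile or upper quartile scaling, 2 other eBayes settings, sex label, label as block, and libraries left out on the same tested genes.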

Additional observations from a re-analysis of the deposited data

Results flagged for a closer look

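In 61 groups of 4 libraries, covering 31 genes named or listed here, 8 values stood apart from the other 3 of their group by Dixon's criterion at 95%, which flags about 1 in 20 groups by chance. In Il18r1, HI F1 was at 14.8 FPKM against 9.20 to 9.46 in the other HI libraries, and in Rora the same library was at 22.4 against 14.3 to 14.8. In Irak3, LO F2 was at 7.71 against 3.58 to 4.28. The others were single values above 0 in a group otherwise at 0: Il1r1 at 0.321 in HI M2 and at 0.643 in LO F1, Il1b at 1.26 in HI M2, Tirap at 1.37 in HI F2 and Il1a at 0.383 in LO M2.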

How the results depend on the processing

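Il1rl1, Il1r2 and Il18r1 kept their direction and call under all 18 alternatives, with log2 differences of 2.81 to 4.19, 2.41 to 3.23 and 1.78 to 2.07, and Il18rap under 17 of 18. The signs of the small differences of Il1rap, Myd88, Irak1 and Irak4 turned under some, without a call. Over all genes, between 338 (without LO F2) and 449 were higher in LO when 1 library was left out, against 524 with all 8. Sex calls fell from 2 genes to 1 with a pseudocount of 0.1 and to 1 without a filter, and interaction calls from 2 to 1 without a filter. With a pseudocount of 0.1 the ratio of Il1r1 to Il1r2 differed by -2.93 and that of Il1rl1 to Il1rap by 4.32, neither passing after adjustment over the 3 ratios (exact permutation test, adjusted p = 0.129 and 0.0857). The ratio of Il18r1 to Il18rap differed by -1.06 to -0.23 with 1 library left out. With the label as a replicate block 771 genes and the same 4 members were called and Irak3 was not (limma adjusted p = 0.117). Same-label libraries correlated by 0.0149 to 0.113 in their deviations from group means, and 6 of 8 libraries correlated best with their own label. These correlations were low but all above 0, so they do not decide if same-label libraries are pairs. The labels do not state it, and the main fit did not pair them. The HI levels of Il1rl1 and Il18rap and the value of Il1r2 in HI M1 rest on few steps above 0. Il1r1 was at 0 in LO M2, the deepest library, too.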
